A study of Mus musculus with 6 samples.

Results

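The genes described here are 10 members of the Notch pathway and its relatives: the ligand genes Jag1, Jag2 and Dll4, the Delta-like gene Dlk1, the receptor genes Notch1, Notch2, Notch3 and Notch4, and the target genes Hes1 and Hey1. They were found as every probe of the array whose symbol equals a listed name, which gave 10 of the 28908 symbols on the array and 14 of its 45281 probes. The arrays were Illumina bead arrays hybridised with RNA of whole adrenal glands, taken from B6.FVB females that were adult and virgin. The arrays labelled cKO (n = 3) came from mice with a conditional knockout of Gata6, a zinc finger transcription factor, and the arrays labelled control (n = 3) came from normal mice. Both groups share strain, sex and reproductive state. The sources used here name neither the driver of the deletion nor the number of animals behind a sample, so the p-values below reflect only how far these samples lie apart, and that spread may be technical.

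Notch signalling passes between touching cells. A Jagged or Delta ligand on the surface of a cell binds a Notch receptor on its neighbour, ADAM proteases and the gamma-secretase complex cut the receptor, and its freed intracellular part joins the DNA-binding protein RBPJ to switch on Hes and Hey genes, which encode transcriptional repressors. Dlk1, also known as preadipocyte factor Pref-1, is a membrane protein with the EGF repeats of a Delta ligand but without the domain with which those ligands bind Notch, and it is known as an inhibitor of fat cell formation and as an imprinted gene expressed from the paternal copy. In the rat adrenal it is also called ZOG, for the outer cortical zone where it was found. Notch4 and Dll4 are best known from endothelium, and Notch3 from the mural cells of vessels.

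On the arrays labelled cKO, Dlk1 and the target gene Hey1 were higher than on the control arrays, by 1.37-fold and 1.48-fold at their brightest probes. The other target gene, Hes1, lay on the opposite side of 0, without passing the test. No receptor gene passed the test in either direction. Jag1, Jag2 and Notch2 were too dim to be tested. The transcripts of Meg3 and Dio3, neighbours of Dlk1 in the same imprinted region, were higher too, by larger factors.

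The upstream sequences of Dlk1, Meg3 and Dio3 are shown because these 3 genes lie in the same imprinted region and each was higher. Whether their rises are linked was not tested. Each is the 250 bases before a transcript start in the RefSeq promoter table, on the plus strand of build GRCm38.p6, read 5′ to 3′, and capitals mark the letters GATAA, the core bound by GATA factors. The windows are chr12:109452573-109452822 for Dlk1, chr12:109540746-109540995 for Meg3 and chr12:110278980-110279229 for Dio3. The Dlk1 window begins inside the gene's full RefSeq span, so its start is that of a transcript that begins later than the first. Meg3 has another start in the table, and its window is not printed.
Dlk1: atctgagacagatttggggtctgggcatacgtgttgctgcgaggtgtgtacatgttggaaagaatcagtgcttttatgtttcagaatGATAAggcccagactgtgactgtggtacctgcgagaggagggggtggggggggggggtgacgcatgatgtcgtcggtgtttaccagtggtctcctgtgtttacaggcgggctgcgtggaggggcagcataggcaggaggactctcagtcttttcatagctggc
Meg3: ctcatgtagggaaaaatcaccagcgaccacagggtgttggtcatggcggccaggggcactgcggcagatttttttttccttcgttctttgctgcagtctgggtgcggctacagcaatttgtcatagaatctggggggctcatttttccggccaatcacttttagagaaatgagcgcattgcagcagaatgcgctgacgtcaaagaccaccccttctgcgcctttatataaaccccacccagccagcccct
Dio3: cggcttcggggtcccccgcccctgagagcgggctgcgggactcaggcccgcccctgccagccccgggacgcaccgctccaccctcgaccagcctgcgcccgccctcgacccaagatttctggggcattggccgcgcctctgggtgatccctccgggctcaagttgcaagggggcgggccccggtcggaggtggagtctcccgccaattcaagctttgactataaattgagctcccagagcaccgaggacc
The RBPJ core TGGGAA was searched on both strands as well, and no match of either motif overlapped the other in these windows. GATAA was present in the Dlk1 window, 163 bases before the start, and in neither of the others, and TGGGAA was in none of the 3. The window of the other Meg3 start held 2 matches of TGGGAA, 247 and 233 bases before that start. Of the 10 genes, 8 matched the promoter table. The target genes Hes1 and Hey1 did not, so their windows were not searched. GATAA was in the windows of 2 of these 8, Dlk1 and Notch3, against 22.5% of 32536 upstream windows of the same length, and TGGGAA was in 0 of 8, against 21.6%. A match of letters is a description of the window and does not show binding.

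Signals were corrected for background, quantile normalized between arrays and expressed as log2 intensity, and cKO minus control differences were tested with limma over all 19210 probes whose detection p-value was under 0.05 on 3 or more of the 6 arrays. Those probes stand for 13327 genes, each represented by its brightest tested probe. The threshold is a Benjamini-Hochberg adjusted p under 0.05, two-sided. Between 18314 and 19459 probes were detected per array, and the number of arrays limits the precision. Arrays correlated at r of 0.986 or more within a label and at 0.978 or less between labels. Gata6 read 12.12 ± 0.17 on the arrays labelled cKO and 11.72 ± 0.07 on the control arrays (SD, n = 3 each), a difference of 0.40 (SE 0.10, limma adjusted p = 0.0545). The Gata6 probe thus goes against the label, and since the sources used here do not place the probe inside or outside the deleted exons, it may check nothing. Directions below therefore follow the labels of the arrays, cKO over control. Cortical markers Cyp11b1 and Star, which define the steroid-making tissue, were bright on all arrays, with means of 14.02 and 13.10 on the arrays labelled cKO and 14.02 and 13.23 on the control arrays.

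Of the 14 probes, 9 passed the filter on dim signals, and they represent 7 genes. Of these 7 genes, counted at their brightest probes, 2 rose, 0 fell in limma and 5 did not pass, where 6.98% of all genes tested passed (4.34% higher and 2.64% lower). Of the 9 probes 3 passed, against 6.49% of all tested probes, and the same 3 did not overlap between labels, against 28.1%. At an unadjusted p under 0.05, 3 of the 7 passed, Hes1 being the further gene and lower, against 23.7% of all genes. The 3 arrays of each label did not overlap in 2 of the 7 genes, against 29.0% of all genes tested. The median difference of the 7 genes was 0.06, against -0.01 over all genes, and the median of the absolute differences was 0.25, against 0.18. The count of 2 genes was 1 under median scaling, without a filter on dim probes, without an intensity trend and without cKO replicate 1 or control replicate 1. It was 0 without cKO replicate 2, cKO replicate 3, control replicate 2 or control replicate 3.

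**Figure D1:**
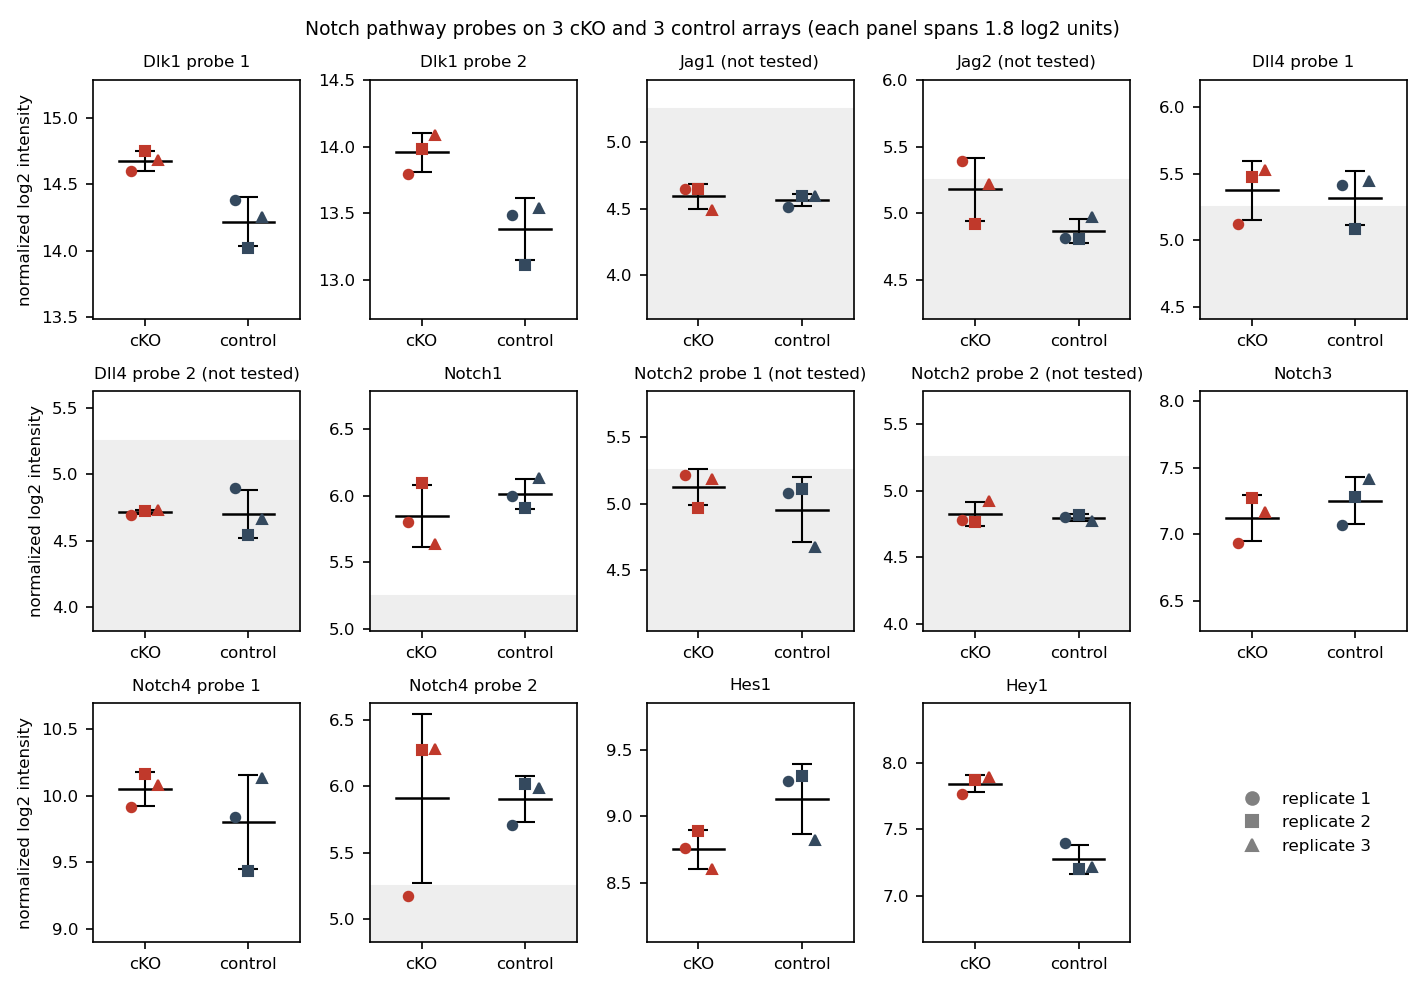
Normalized log2 intensity of each of the 14 probes (y axis) on the arrays labelled cKO and control (x axis), with marker shapes for the replicates, a bar at the mean and error bars of 1 SD (n = 3). Grey marks levels up to the highest of the 6 arrays' lowest detected signals, 5.25. The arrays labelled cKO lie above all control arrays at both Dlk1 probes and at Hey1.

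Dlk1 was among the brightest transcripts of the gland. Its brighter probe (ILMN_2771738) was brighter than 99.2% of the tested probes, and its other probe (ILMN_1244618) brighter than 98.2%. The brighter probe had deposited signals of 23043, 23555 and 26618 on cKO replicates 1, 2 and 3, against 22238, 17915 and 21762 on control replicates 1, 2 and 3. All arrays labelled cKO were above the highest control array, though cKO replicate 1 exceeded control replicate 1 only slightly. After normalization the log2 levels were 14.60, 14.75 and 14.69 on the arrays labelled cKO and 14.39, 14.02 and 14.25 on the control arrays. The groups did not overlap, and control replicate 2 was the lowest array. The difference was 0.46 (SE 0.10, 95% confidence interval 0.22 to 0.69, limma adjusted p = 0.0350), a 1.37-fold rise with an interval of 1.17 to 1.62.

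The other Dlk1 probe gave the same order of groups. It had deposited signals of 13407, 13939 and 17279 on the arrays labelled cKO, against 11616, 9409 and 13045 on the control arrays. Its normalized levels averaged 13.96 ± 0.15 on the arrays labelled cKO and 13.38 ± 0.23 on the control arrays (SD, n = 3 each). The difference was 0.58 (SE 0.13, limma adjusted p = 0.0331), a 1.49-fold rise. Its change was thus 1.49-fold where the brighter probe gave 1.37-fold, and the intervals of the probes overlapped.

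The Dlk1 call was sensitive to how the arrays were scaled. With median scaling replacing quantile normalization, the differences were 0.24 (limma adjusted p = 0.265) and 0.39 (adjusted p = 0.124), still with every array labelled cKO above every control array. All 634 tested probes with a mean level of 13 or more had a median difference of -0.19 under median scaling and -0.01 under quantile normalization, so the level of bright probes differed between the scalings. Without an intensity trend the adjusted p-values were 0.0835 and 0.0698. The call of the brighter probe was lost without cKO replicate 2 (0.43, adjusted p = 0.10), cKO replicate 3 (0.45, 0.121), control replicate 2 (0.36, 0.108) or control replicate 3 (0.48, 0.0742). The call of the other probe was lost without cKO replicate 2 (0.57, adjusted p = 0.0972), cKO replicate 3 (0.51, 0.128), control replicate 1 (0.62, 0.0578) or control replicate 2 (0.44, 0.0821).

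**Figure D2:**
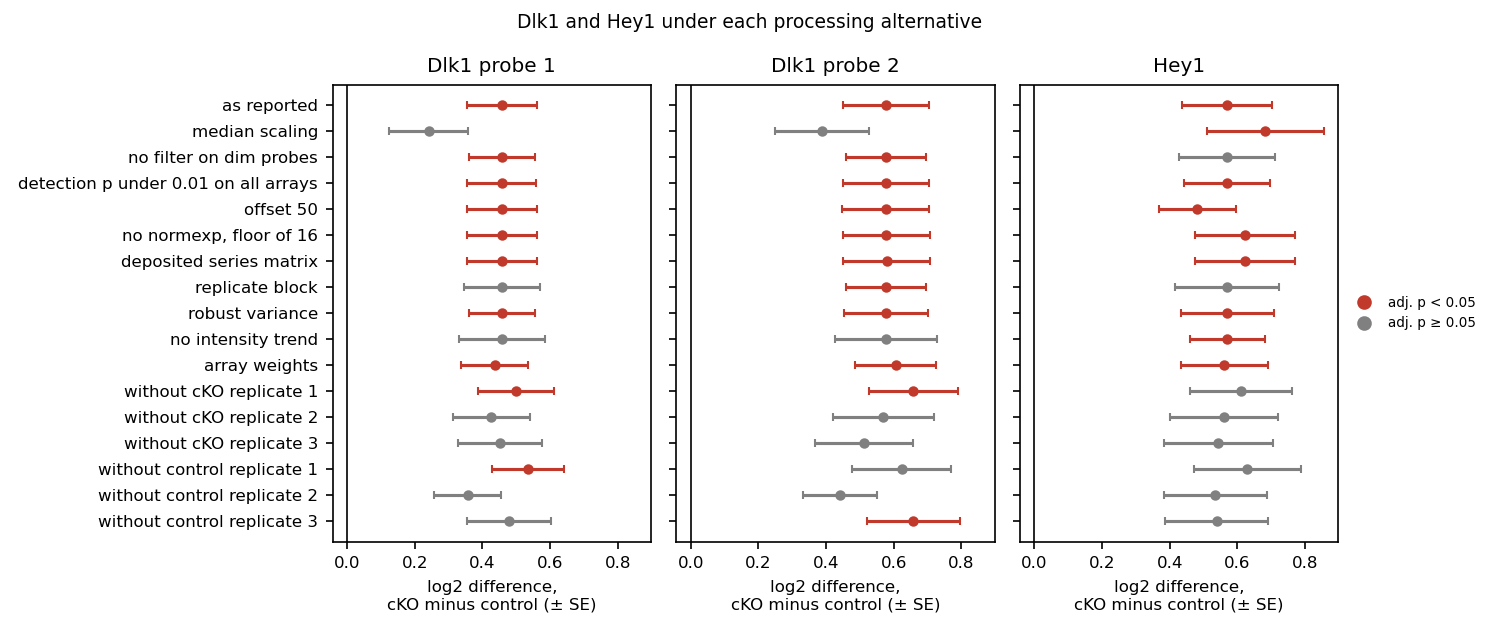
Log2 difference, cKO minus control, with its standard error (x axis) for both Dlk1 probes and Hey1 under each processing alternative (y axis), coloured by whether the adjusted p is under 0.05. Every estimate lies above 0, between 0.24 and 0.68, and the calls are lost under several alternatives.

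Genes of the imprinted region that holds Dlk1 were examined next. Meg3, a non-coding RNA expressed from the maternal copy, lies beyond Dlk1, and Dio3, which encodes the deiodinase that inactivates thyroid hormone, lies at the far end. Meg3 had deposited signals of 1039, 1635 and 1778 on the arrays labelled cKO, against 432.5, 513.1 and 677.4 on the control arrays. Every array labelled cKO was above every control array by a wide margin. The Meg3 difference was 1.41 (SE 0.18, limma adjusted p = 0.00392), and its second tested probe read 1.01 (SE 0.16, adjusted p = 0.00959). The other 3 Meg3 probes were too dim to be tested.

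Dio3 was dim on the control arrays, where it was detected on 2 of 3. Its deposited signals were 87.5, 113.5 and 117.8 on the arrays labelled cKO, against 37.2, 27.8 and 16.4 on the control arrays. The groups did not overlap. The Dio3 difference was 1.38 (SE 0.20, limma adjusted p = 0.00666), and its size is uncertain because the control levels lie near the background. Rtl1, an imprinted gene whose span overlaps that of Meg3 in RefSeq and whose protein serves the placenta, was not tested. Its brighter probe was detected on 2 arrays with the cKO label and on 0 controls. Wdr25, a gene on the other side of Dlk1, read 5.96 on the arrays labelled cKO and 6.12 on the control arrays, a difference of -0.16 (SE 0.19, adjusted p = 0.674). In all, 3 of the 4 tested genes of the region rose, Dlk1 included, where 4.34% of all genes rose. Dlk1 is the gene for which the region was examined, which leaves 2 of 3 others. Meg3 passed under all 16 alternatives, between 1.29 and 1.60. Dio3 passed under the 15 that tested it, between 0.93 and 1.88, and it was not tested where detection on all arrays was required.

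**Figure D3:**
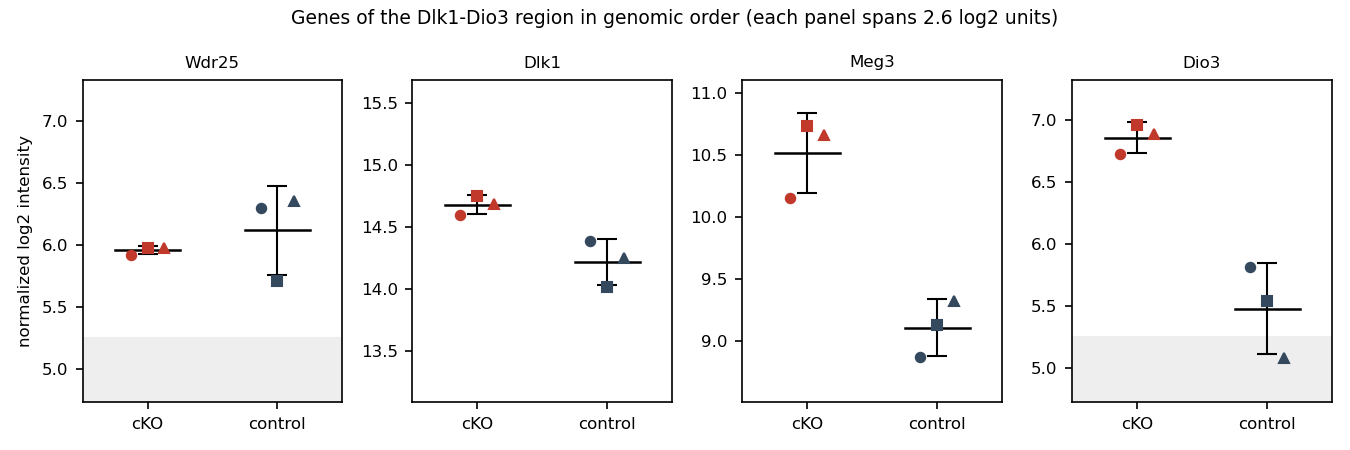
Normalized log2 intensity (y axis) of the brightest tested probe of 4 genes in their order along the chromosome, on the arrays labelled cKO and control (x axis), with bars at the mean and 1 SD (n = 3) and marker shapes for the replicates as in the plot of all probes. Dlk1, Meg3 and Dio3 are higher on all arrays labelled cKO, and Wdr25 overlaps between the labels.

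Dlk1 is known from several cell types, so marker genes of the cells a whole gland can hold are given beside it. Over all genes tested, 4.34% rose and 2.64% fell. The sums are of deposited signals, before normalization, so the brightest genes weigh most in them. Of 7 tested capsule and mesenchyme markers 6 rose, and their summed signal was 20225 to 27881 on the arrays labelled cKO and 12284 to 13360 on the control arrays. Of 12 tested chromaffin markers 3 rose, with sums of 59838 to 82399 on the arrays labelled cKO and 42322 to 59925 on the control arrays. In this list 11 genes lay above 0 and 1 below, with a median difference of 0.43, against -0.01 over all genes. Of 8 tested fat markers 4 rose, with sums of 50467 to 79260 on the arrays labelled cKO and 27011 to 35030 on the control arrays. The largest part of the fat sum was Cfd, at 33249, 43569 and 46267 on the arrays labelled cKO, against 18585, 23384 and 22937 on the control arrays. Ucp1 varied widely, at 1649, 4729 and 214 on the arrays labelled cKO and 1352, 1109 and 2128 on the control arrays. Of 9 tested cortex markers 1 rose at its brightest probe, Mc2r, with sums of 73603 to 80592 on the arrays labelled cKO and 73712 to 95713 on the control arrays. The Mc2r call was lost under median scaling (0.40, limma adjusted p = 0.0613) and without cKO replicate 2 (0.48, 0.0507). Cyp11a1 did not pass at its brightest probe (-0.04), but 1 of its 4 tested probes passed, and these ranged from -0.04 to 1.11. Cyp11b2 did not pass, at -0.95 at its brightest probe (SE 0.35, limma adjusted p = 0.152) and -0.98 at its other. At the brightest probe its groups overlapped, with an unadjusted p of 0.0253 in limma. Of the 9 cortex markers, 3 lay above 0 and 6 below. Detected on 0 arrays were Gli1 of the capsule list, Fabp4, Retn and Cd36 of the fat list, Fdx1 of the cortex list and none of the chromaffin list. The part of these cells in the Dlk1 result was not tested, and in whole glands more cells of a type and more RNA per cell cannot be told apart.

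Among the ligand genes, only Dll4 could be tested beside Dlk1. Dll4, the Delta ligand of endothelial tip cells and arteries, had deposited signals of 17.5, 30.6 and 33.8 on the arrays labelled cKO, against 24.5, 15 and 27.6 on the control arrays. It was detected on 2 of 3 arrays of either label, and the groups overlapped. Its difference was 0.06 (SE 0.17, interval -0.33 to 0.46, limma adjusted p = 0.874). The other Dll4 probe was detected on 0 arrays.

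Jag1 and Jag2 encode the Jagged ligands. Jag1 was detected on 0 of 6 arrays, so its level is known only to lie below the detection limit of this probe. Jag2 had deposited signals of 25.8, 11.9 and 22.6 on the arrays labelled cKO, against 6.6, 6.4 and 12.7 on the control arrays. Detection was reached on 2 arrays with the cKO label and on 0 controls. Its mean of 5.18 on the arrays labelled cKO did not exceed the bound of 5.21 set by the lowest detected signals of the control arrays, so no fold is given.

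The receptors showed no difference beyond the spread of the replicates. Notch4, the endothelial receptor, was the best measured, with deposited signals of 878, 1105 and 1172 on the arrays labelled cKO, against 866, 645 and 1192 on the control arrays. Control replicate 3 was the highest array and control replicate 2 the lowest, so the groups overlapped. The Notch4 difference was 0.25 (SE 0.17, interval -0.14 to 0.64, limma adjusted p = 0.432). It was 0.065 without control replicate 2 and 0.42 without control replicate 3, and passed in neither case. A second, dim Notch4 probe read 18.9, 65.7 and 71.3 on the arrays labelled cKO and 33.2, 43.9 and 47.3 on the control arrays, a difference of 0.01 (SE 0.29). Its lowest and highest arrays both carried the cKO label.

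Notch3, the receptor of vascular smooth muscle and pericytes, had deposited signals of 102.7, 143.9 and 146.5 on the arrays labelled cKO, against 109.9, 125.6 and 158.3 on the control arrays. The labels interleaved, and the difference was -0.13 (SE 0.16, interval -0.50 to 0.24, limma adjusted p = 0.682). Notch1, the most widely used receptor of the family, had signals of 39.7, 56.3 and 38.5 on the arrays labelled cKO, against 44.2, 39.8 and 54.5 on the control arrays. It was detected on all 6 arrays and differed by -0.17 (SE 0.17, interval -0.55 to 0.21, limma adjusted p = 0.597). Notch2 was near the background at both probes. Its brighter probe was detected on 2 arrays with the cKO label and on 0 controls, at means of 5.12 on the arrays labelled cKO and 4.95 on the control arrays, below the control bound of 5.21.

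The intervals of Notch4 reached a rise of the size measured for Dlk1, with an upper limit of 1.56-fold. Those of Notch3 and Notch1 ended at 1.18-fold and 1.16-fold above, but their lower limits of -0.50 and -0.55 on the log2 scale lie farther from 0 than the Dlk1 difference, so falls of that size remain possible. Endothelial markers, the cells in which Notch4 and Dll4 are best known, had 0 of 18 tested genes past the threshold in limma and 7 at an unadjusted p under 0.05, where 23.7% of all genes had such a p, with a median difference of -0.04 and summed signals of 16414 to 23048 on the arrays labelled cKO and 19420 to 24217 on the control arrays. The brightest of them, Emcn, differed by 0.10 (SE 0.14), and by -0.03 under median scaling. The 7 with an unadjusted p under 0.05 went both ways. Cldn5 (-0.59, limma adjusted p = 0.0531), Plvap (-0.34), Icam2 (-0.35) and Flt4 (-0.47) were lower, without overlap of the groups. Cdh5 (0.34), Vwf (0.62) and Sox17 (0.41) were higher, and the groups overlapped at Cdh5. Erg was detected on 0 arrays. Of 8 tested arterial markers 1 fell, where 2.64% of all genes fell. It was Unc5b, a guidance receptor gene, at -0.67 (limma adjusted p = 0.0318). The Unc5b call was lost without any of the 6 arrays (-0.74 to -0.61, adjusted p = 0.0670 to 0.0969) and under median scaling (-0.53, 0.108). The arterial median difference was 0.06, with 5 genes above 0 and 3 below, and Efnb2 was detected on 0 arrays. The summed arterial signal was 3462 to 4348 on the arrays labelled cKO and 4512 to 5437 on the control arrays. Most of it was Nrp1, at 2657, 2521 and 3228 on the arrays labelled cKO, against 4833, 3698 and 3766 on the control arrays. Nrp1 differed by -0.45 without passing (limma adjusted p = 0.0799). Mural markers, the cells in which Notch3 is best known, were split. Of 11 tested, the smooth muscle genes Acta2 (1.82) and Myh11 (1.37) rose, where 4.34% of all genes rose. The pericyte potassium channel genes Kcnj8 (-0.72) and Abcc9 (-0.69) fell, where 2.64% of all genes fell. Cnn1 was detected on 0 arrays. The Kcnj8 call was lost without any of the 6 arrays (-0.80 to -0.65, adjusted p = 0.0508 to 0.0909) and under median scaling (-0.58, 0.0829). The other 7 mural markers did not pass, among them Tagln (0.17), Pdgfrb (-0.19) and Rgs5 (-0.24). Of all 11, 7 lay above 0 and 4 below. The summed signal of the mural markers was 8802 to 14684 on the arrays labelled cKO and 3237 to 5308 on the control arrays. Most of it was Acta2 alone, at 7489, 7151 and 12956 on the arrays labelled cKO, against 1918, 3882 and 2649 on the control arrays.

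**Figure D4:**
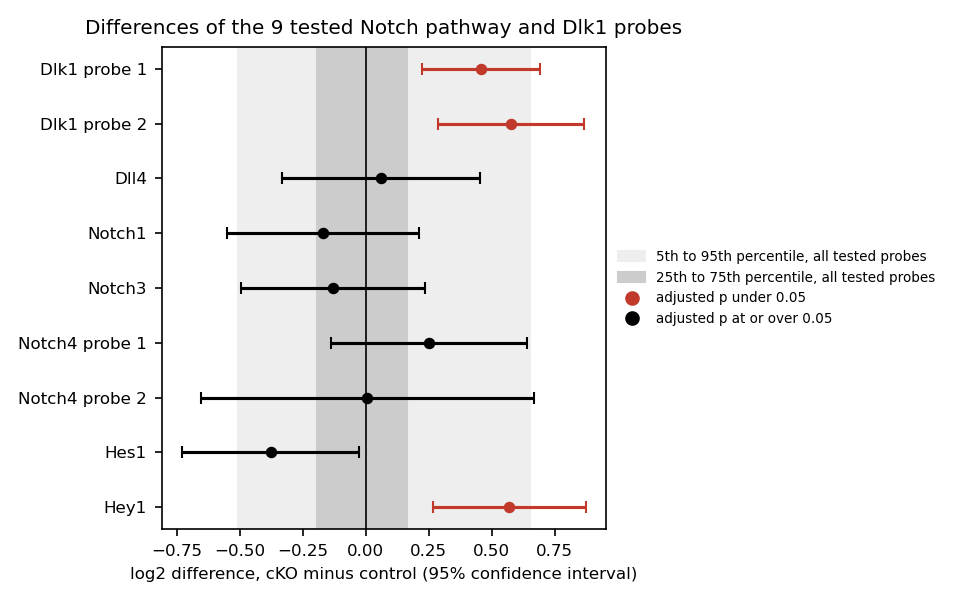
Log2 difference, cKO minus control, with its 95% confidence interval (x axis) for the 9 tested probes (y axis), over bands for the central ranges of all 19210 tested probes. Both Dlk1 probes and Hey1 lie at 0.46 to 0.58, Hes1 at -0.38, and the receptors and Dll4 between -0.17 and 0.25.

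Of the target genes, Hey1 passed the test and Hes1 did not. Hey1, a repressor of the Hairy family with a known role in vessels and bone, had deposited signals of 195.5, 224.0 and 252.2 on the arrays labelled cKO, against 142.6, 118.7 and 136.8 on the control arrays (probe ILMN_2690596). Every array labelled cKO lay above every control array. Its normalized levels averaged 7.84 ± 0.07 on the arrays labelled cKO and 7.27 ± 0.11 on the control arrays (SD, n = 3 each). The Hey1 difference was 0.57 (SE 0.13, interval 0.27 to 0.87, limma adjusted p = 0.0412), a 1.48-fold rise.

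The Hey1 estimate stayed between 0.48 and 0.68 under all 16 alternatives, but its call did not. It was lost without a filter on dim probes (adjusted p = 0.0652). It was also lost without any of the 6 arrays, namely without cKO replicate 1 (0.61, adjusted p = 0.0551), cKO replicate 2 (0.56, 0.121), cKO replicate 3 (0.54, 0.142), control replicate 1 (0.63, 0.0710), control replicate 2 (0.53, 0.117) or control replicate 3 (0.54, 0.0943). Under median scaling it passed, at 0.68 (adjusted p = 0.0373), where Dlk1 did not.

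Hes1, the Hairy-family repressor most often read as a sign of Notch activity, had deposited signals of 391.5, 455.5 and 419.2 on the arrays labelled cKO, against 570.1, 584.5 and 468.6 on the control arrays (probe ILMN_1247691). Before normalization all arrays labelled cKO lay below all control arrays. After it they overlapped, since cKO replicate 2 (8.89) lay above control replicate 3 (8.82). The normalized means were 8.75 ± 0.15 on the arrays labelled cKO and 9.13 ± 0.27 on the control arrays (SD, n = 3 each). The Hes1 difference was -0.38 (SE 0.16, interval -0.73 to -0.03), with an unadjusted p of 0.0383 in limma and an adjusted p of 0.191. It did not pass under any of the 16 alternatives, where it lay between -0.53 and -0.29 with adjusted p-values of 0.0705 to 0.437.

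A wider list of the pathway held 61 further genes with a probe, of which 48 were tested. Over these, 4 rose, 1 fell and 43 did not pass, which is 10.4% past the threshold where 6.98% of all genes passed. The median difference was 0.00, against -0.01 over all genes, with 24 genes above 0 and 24 below. Genes detected on 0 arrays included Rbpj, the DNA-binding partner of all Notch receptors, at each of its 3 probes, the sheddase gene Adam10, the ligand gene Dll3, the glycosyltransferase gene Lfng and the target genes Hes2, Hes5 and Hes7. The levels of these genes are known only to lie below the detection limits of their probes. The count of 5 was 3 without cKO replicate 2, cKO replicate 3, control replicate 1 or control replicate 2.

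The further ligands did not pass. Dner, a neuronal ligand without the Delta-type binding domain, read 258.8, 365.3 and 369.8 on the arrays labelled cKO, against 168.1, 206.0 and 211.5 on the control arrays. Its groups did not overlap, and its difference was 0.61 (SE 0.15, limma adjusted p = 0.0502). Dll1 differed by -0.17 and Dlk2, the closest relative of Dlk1, by -0.01, both at levels near the background.

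Receptor processing held the single fall. Adam17, which encodes a membrane protease that sheds many surface proteins and can cut Notch, had deposited signals of 629.7, 599.7 and 723.5 on the arrays labelled cKO, against 916.8, 889.3 and 954.5 on the control arrays. The groups did not overlap, and it fell by 0.50 on the log2 scale (SE 0.10, limma adjusted p = 0.0219). Its call was lost without cKO replicate 2 (-0.46, adjusted p = 0.0772), cKO replicate 3 (-0.51, 0.0807), control replicate 1 (-0.47, 0.0770) or control replicate 2 (-0.49, 0.0693). Psen2, Ncstn, Aph1a, Aph1b and Psenen, which encode parts of gamma-secretase, lay between -0.47 and 0.00, and none of these passed. Of the genes that add sugars to the receptors, 0 of 4 tested passed in limma. Only 1, Mfng, had an unadjusted p under 0.05, where 23.7% of all genes had such a p. Mfng, the Manic fringe glycosyltransferase gene, differed by 0.66 at its brightest probe (SE 0.21, limma adjusted p = 0.105) and by 0.16 at its other tested probe.

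Genes of ligand and receptor turnover gave 2 rises among 11 tested, where 4.34% of all genes rose. Neurl1a, which encodes a ubiquitin ligase of the Neuralized family, had deposited signals of 1253, 1488 and 1764 on the arrays labelled cKO, against 927.6, 761.8 and 1076 on the control arrays. The groups did not overlap, and it rose by 0.70 (SE 0.12, limma adjusted p = 0.0128). It narrowly missed the threshold without cKO replicate 2 (0.68, adjusted p = 0.0501) and missed it without cKO replicate 3 (0.65, 0.0634).

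Dtx4, a Deltex ubiquitin ligase gene, rose by 0.66 (SE 0.15, adjusted p = 0.0353), with signals of 209.1, 178.8 and 242.8 on the arrays labelled cKO and 103.9, 116.4 and 127.5 on the control arrays. Its second probe read 1.01 and passed too. Dtx4 was lost when any array but cKO replicate 2 was left out, at 0.60 to 0.70 with adjusted p-values of 0.0732 to 0.132. Dtx1 differed by 0.64 without passing (adjusted p = 0.0818), and Numb, the inhibitor that sorts the receptor to endosomes, by 0.12 (SE 0.09).

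Of 12 tested nuclear factors, 0 passed in limma and 4 had an unadjusted p under 0.05, where 23.7% of all genes had such a p. These were Kat2a (0.31), Cir1 (-0.35), Snw1 (-0.75) and the coactivator gene Crebbp (-1.001), and the groups overlapped at all 4. Snw1 and Crebbp lay near the background and were each detected on 5 of 6 arrays, so their sizes are uncertain. Crebbp had deposited signals of 44.4, 37.9 and -3.5 on the arrays labelled cKO, against 70.2, 29.5 and 117.5 on the control arrays. Of the further target genes, Hes6, Hey2, Heyl, Nrarp, Myc and Ccnd1 were tested and none passed, with differences between -0.31 and 0.18. Hey1 was therefore the only one of 8 tested target genes past the threshold, where 6.98% of all genes passed.

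Extracellular proteins that can modulate Notch gave the largest rises of the list. Mfap2, which encodes a microfibril protein, had signals of 546.1, 502.2 and 1060 on the arrays labelled cKO, against 253.6, 249.8 and 235.7 on the control arrays. It rose by 1.32 (SE 0.22, limma adjusted p = 0.0117), with cKO replicate 3 the highest array. Thbs2, which encodes a matrix glycoprotein, rose by 1.03 (SE 0.16, adjusted p = 0.00745). Egfl7, a secreted endothelial protein, differed by 0.24 (SE 0.12, adjusted p = 0.293). Mfap2 and Thbs2 are also products of fibroblasts. Of the 7 tested capsule and mesenchyme markers 6 rose as well, where 4.34% of all genes rose. The part of those cells in these rises was not tested.

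**Figure D5:**
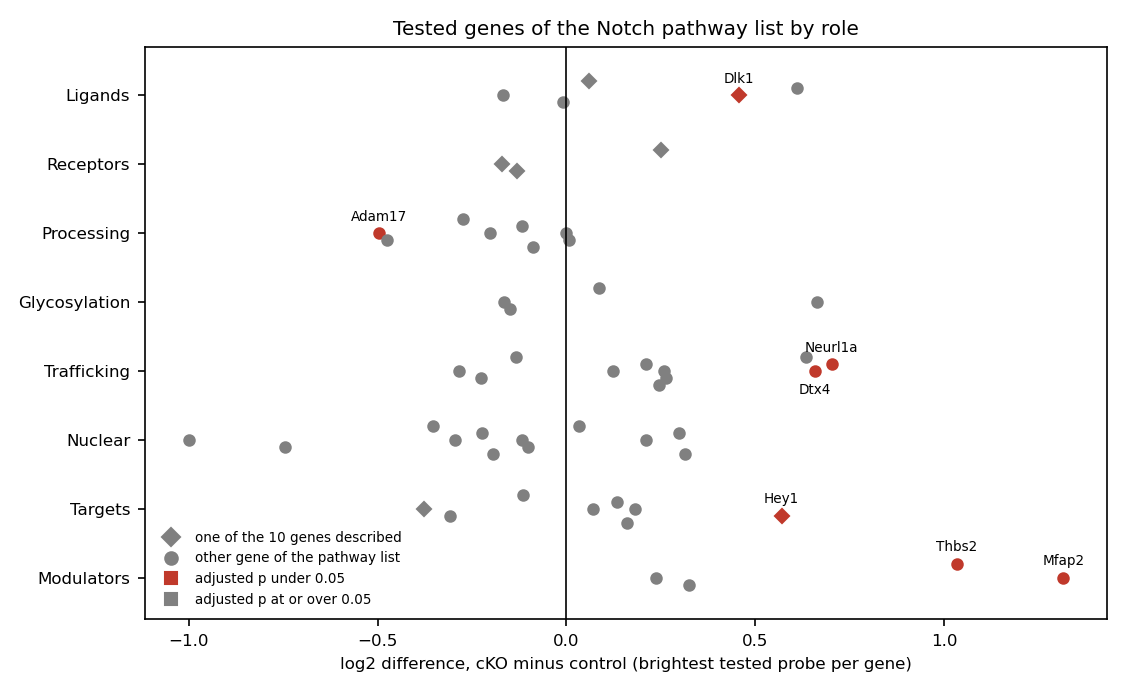
Log2 difference, cKO minus control, of the brightest tested probe (x axis) of each gene of the Notch pathway list by role (y axis), with diamonds for the genes described here and red for an adjusted p under 0.05. Dlk1, Hey1, Neurl1a, Dtx4, Mfap2 and Thbs2 lie above 0 and Adam17 below it.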

How the data were processed

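Linear probe intensity values, not normalized between arrays, and detection p-values were deposited by the authors, per the file headers. Negative intensities made up 30.7% to 33.4% of each array, which means that some background subtraction came before deposit. The scanner software was not given in the sources used. RNA was extracted with a Qiagen RNeasy kit and labelled with an Ambion MessageAmp kit, per the labels' protocols. The series matrix deposited by the authors gives intensity values that rank the probes identically on each array, and it served as an alternative source.

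From the signals, background was corrected with limma 3.58.1 in R 4.3.3 (normexp with detection p-values, offset 16, which pulls dim differences toward 0), followed by log2 and quantile normalization. The comparison was a limma linear model of the 6 arrays with no covariate, whose empirical Bayes variances followed an intensity trend. Alternatives changed the scaling, filter, offset, background correction, value source, variance model and array weights, added the replicate number, or left out each array. The fit was tested on simulated data.

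The genes described and all gene lists were chosen with earlier results of these data known. Named genes were Gata6, the 10 genes, up to 3 genes per list with the largest difference past the threshold or else its brightest gene, and the 3 genes most like each gene that passed. Dner, Dll1, Dlk2, Rbpj, Mfng, Dtx1, Numb, Egfl7, Abcc9, Kat2a, Cir1, Snw1, Crebbp, Rtl1, Wdr25, Cyp11b1 and Star, and the undetected and gamma-secretase genes, were named after their values were seen. So were Tagln, Pdgfrb, Rgs5, Nrp1, Cldn5, Plvap, Icam2, Flt4, Cdh5, Vwf, Sox17, Cfd, Ucp1, Cyp11a1 and Cyp11b2. Symbols were updated through a RefSeq table (GRCm38.p6): 27740 probes carried a current symbol, 8037 an older synonym and 9504 no listed symbol.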

Additional observations from a re-analysis of the deposited data

How the results depend on the processing

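Over the 16 alternatives the number of probes past the threshold was 1247 as reported and between 960 and 1729 with all arrays, and it was 480 to 1213 when an array was left out. Of the 10 genes, 1 passed under median scaling, 1 without a filter on dim probes, 1 without an intensity trend and 0 with the replicate number as a block (limma), where 3 had an unadjusted p under 0.05. That count was 0 to 1 when an array was left out. The further pathway genes past the threshold were 5 as reported, 3 with the replicate block and 3 to 5 when an array was left out. Gata6 passed with a robust variance (0.40, adjusted p = 0.0472) and with array weights (0.43, adjusted p = 0.0330), and lay between 0.31 and 0.46 when an array was left out, passing without cKO replicate 1. Values that changed sign were all small and not past the threshold. They were Dll4 without cKO replicate 3 (-0.01) or control replicate 2 (-0.057), with a leave-one-out range of -0.057 to 0.19, and the dim Notch4 probe without normexp (-0.074), from the series matrix (-0.074), without cKO replicate 2 (-0.17), without cKO replicate 3 (-0.17) or without control replicate 1 (-0.096), with a leave-one-out range of -0.17 to 0.37. Hdac2 (-0.045) and Emcn (-0.034) did so under median scaling. The cause was not tested. Samples of the same replicate number did not deviate together (r of 0.04, 0.04 and -0.01), so the numbers were not used as pairs. With the block, the Dlk1 probes had adjusted p-values of 0.0658 and 0.0391 and Hey1 0.0813. The file headers give no slide, so a slide block was not run. Signals near the background limit what can be said of Jag1, Jag2, Notch2 and Dll4.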

Other observations

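Other imprinted growth genes were looked at beside Dlk1. Of 9 tested outside the Dlk1 region, Igf2, the fetal growth factor gene, and H19, the non-coding RNA next to it, rose, and Igf2r, the receptor gene that clears the factor, fell. Over all genes tested, 4.34% rose and 2.64% fell. H19 had deposited signals of 226.6, 409.6 and 628.9 on the arrays labelled cKO, against 60.9, 119.0 and 120.3 on the control arrays, and rose by 1.76 (SE 0.32, limma adjusted p = 0.0162). Its call was lost without cKO replicate 2 (1.71, adjusted p = 0.0607) or cKO replicate 3 (1.48, 0.0584). Igf2 had signals of 1280, 1263 and 1641 on the arrays labelled cKO, against 961.2, 896.6 and 883.5 on the control arrays, and rose by 0.60 (SE 0.11, adjusted p = 0.0151), though not without cKO replicate 3 (0.56, adjusted p = 0.0749). Igf2r fell by 0.45 (SE 0.11, adjusted p = 0.0383) and did not pass when any of the 6 arrays was left out (adjusted p = 0.0643 to 0.119). Cdkn1c, a growth-restraining imprinted gene, and Ndn, Peg3, Grb10, Gnas and Mest did not pass at their brightest probes, while 2 dimmer probes of Mest passed, the lowest at -1.16.

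The genes whose 6 normalized values followed the brighter Dlk1 probe most closely were Shh (Pearson r = 0.9998), Tgfbr3 (r = 0.993) and Fgfr2 (r = 0.993). Shh, the hedgehog ligand of the outer cortex, rose by 0.58 (SE 0.12, limma adjusted p = 0.0298). Its call was lost under median scaling (0.51, adjusted p = 0.0597), without an intensity trend (0.0596), with the replicate block (0.0608) and without cKO replicate 2 (0.53, 0.103), cKO replicate 3 (0.57, 0.110), control replicate 2 (0.45, 0.0766) or control replicate 3 (0.59, 0.0630). Tgfbr3 and Fgfr2 differed by 0.30 and 0.35 without passing. Those most like Hey1 were Zfp239 (r = 0.998), Spg20 (r = 0.995) and Map4k1 (r = 0.995). Each r spans 6 arrays in 2 groups and is among the highest of 13327 genes, so it is a description of these arrays.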
